A study of Homo sapiens with 18 samples.

Results

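Cytosolic ribosomal protein genes were defined by their symbols: RPSA and every gene named RPL or RPS with a member number, including the acidic stalk proteins RPLP0, RPLP1 and RPLP2. The rule found 84 genes among the 62703 listed, 52 of the large subunit and 32 of the small subunit, on 21 chromosomes, with 12 of them on chromosome 19. All 84 were read in the 18 libraries of the study. RNA-seq counts were available for human multiple myeloma cell lines labelled AMO1, H929 (NCI-H929) and LP1, which are malignant plasma cells grown in culture. Each line had 3 libraries labelled SCR, for a scrambled control gapmer, and 3 labelled gN1E, for a gapmer directed at the long non-coding RNA NEAT1. A gapmer is a short antisense oligonucleotide with a DNA centre that recruits RNase H to its target. Every culture had taken up 5 µM of its gapmer unaided (gymnosis) for 48 h, and no line carried an engineered allele by its label. Nothing in the labels says that the 3 libraries of a group came from separate cultures, so p-values measure the spread between these libraries.

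Cytosolic ribosomal proteins assemble with ribosomal RNA into the small and large subunits of the ribosome, and most are made at similar amounts because a ribosome takes a single copy of most of them. Their messenger RNAs usually start with a run of pyrimidines, the 5′ terminal oligopyrimidine (TOP) stretch, through which LARP1 and mTOR signalling control their translation together. Several members have paralogs that can replace them in the ribosome, such as RPL22L1 for RPL22. Plasma cells make large amounts of secreted immunoglobulin, and RPL5 and RPL10 are among the ribosomal protein genes known to be lost or mutated in myeloma or other blood cancers.

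The labels were checked before any member was read. NEAT1 was 6.30-fold higher in the libraries labelled gN1E than in those labelled SCR in AMO1, 6.67-fold in H929 and 4.40-fold in LP1 (edgeR quasi-likelihood test, adjusted p = 5.1e-13, 3.11e-14 and 0.0269), which goes against the label of a NEAT1 gapmer. Directions below are therefore given for the libraries labelled gN1E, in which NEAT1 was high. The line labels also carried a limit. The immunoglobulin segment IGHV3-23 was at 1756 ± 235 counts per 1000000 counts (CPM) in the libraries labelled AMO1 and 1550 ± 391 in those labelled H929 (SD, n = 6), and had 0 reads in those labelled LP1. IGKV3-20 (1545 and 1291 CPM), IGHA1 (7746 and 8821) and the cyclin gene CCND2 (1825 and 1607) were likewise high in both and at 0.0564, 8.12 and 1.59 CPM in LP1. A pair of immunoglobulin genes set the AMO1 and H929 labels apart, with IGLV3-21 at 0.00948 CPM in AMO1 and 1094 in H929, and IGHG1 at 1.47 and 707. FGFR3, which the t(4;14) translocation described in NCI-H929 and LP-1 places under immunoglobulin control, was at 1.35 CPM in the libraries labelled H929 and 701 CPM in those labelled LP1. NSD2, the other gene of that translocation, was at 185, 237 and 1617 CPM in AMO1, H929 and LP1. The names inside the deposited counts exchange SCR with gN1E and H929 with LP1 relative to the sample labels. By those names, libraries called gN1E here would be SCR, and those called LP1 here would be H929. Lines and gapmers are called by the sample labels, and which naming is right was not tested. How this bears on the differences between lines was not tested either. All 9 plasma cell markers read, SDC1, TNFRSF17 and IRF4 among them, were above 1 TPM (transcripts per 1000000, a level per length) in all 18 libraries. MS4A1, CD2, CD14, LYZ and COL1A1 stayed below 1 TPM throughout, whereas the T cell gene CD3E was at 8.69 to 28.6 TPM. Depth ran from 28061606 to 69937229 counts per library.

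The start sites of a few members are shown here because the results turn on these members, and the start is where a TOP messenger RNA is defined. Each window holds 20 bases before and 20 bases from the first transcribed base, from RefSeq on GRCh38.p14, on the gene's strand. Capitals mark the unbroken pyrimidine run at the start.
RPL22: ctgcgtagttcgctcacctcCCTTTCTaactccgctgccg
RPL22L1: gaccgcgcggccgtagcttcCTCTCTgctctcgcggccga
RPS27: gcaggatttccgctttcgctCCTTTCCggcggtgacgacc
RPS27L: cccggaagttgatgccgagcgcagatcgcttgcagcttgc
RPS7: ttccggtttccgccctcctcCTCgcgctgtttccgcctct
RPL13A: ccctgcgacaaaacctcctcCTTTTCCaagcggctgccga
RPL38: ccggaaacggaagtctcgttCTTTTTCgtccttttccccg
The windows lie at chr1:6199576-6199615 for RPL22 (minus strand), chr3:170870176-170870215 for RPL22L1 (minus), chr1:153990742-153990781 for RPS27 (plus), chr15:63157458-63157497 for RPS27L (minus), chr2:3575240-3575279 for RPS7 (plus), chr19:49487588-49487627 for RPL13A (plus) and chr17:74203658-74203697 for RPL38 (plus). Both RPL22 and its paralog RPL22L1 began with a pyrimidine run, of 7 and 6 bases, whereas RPS27 did, with 7 bases, and RPS27L did not. The run at RPS7 was 3 bases long.

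RefSeq start sites were matched for 67 of the 84 members. A start of C followed by 4 bases that are each C or T, read on the gene's strand at any listed start, was present in 47 of the 67 (70.1%) and in 5.14% of the 27305 genes in the table. In windows of 250 bases before and 50 bases after the start, CCGGAAG on either strand was present in 35.8% of the members and 12.2% of all genes. AAGATGGC on either strand was present in 10.4% of members and 3.52% of all genes, and TATAAA in 10.4% and 14.0%. These are matches of letters only.

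Transcript levels were compared between genes as TPM, which divides counts by the exon length in the deposited tables. The 84 members together held 40479 to 55845 TPM per library. The median member was at 482 TPM, 71 members were above 100 TPM and 16 above 1000 TPM. Among the highest were RPL13A (1925 TPM), RPS2 (1896), RPS21 (1669) and RPS12 (1593), averaged over the 18 libraries. RPL13A, which is also known for its part in translational silencing after interferon, was at 1656 ± 62.4 TPM in AMO1, 1523 ± 64.4 in H929 and 2595 ± 147 in LP1 (SD, n = 6). RPS2, of the small subunit's messenger RNA entry site, was at 2120 ± 157 TPM in AMO1, 1844 ± 140 in H929 and 1723 ± 149 in LP1. TPM are not TMM-scaled, so an order of lines by TPM can depart from the fitted one. In the fit, RPS2 differed in LP1 by -0.087 ± 0.070 (SE) from AMO1 and by 0.12 ± 0.070 from H929 on the log2 scale, and neither passed (edgeR adjusted p = 0.272 and 0.133).

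The 5 lowest members by the exon length of the files were RPL10L, RPL3L, RPL36A, RPS27L and RPL39L. RPL10L, the testis paralog of the X-linked RPL10, had 0 reads in 15 of 18 libraries and at most 3 in the others, and a count of 0 allows up to 3 reads in a library. RPL3L, the paralog of RPL3 in heart and skeletal muscle, had 2 to 39 reads per library. RPL36A was at 11.3 TPM, RPS27L at 16.6 and RPL39L at 20.1. RPL36A shares exons with the read-through gene RPL36A-HNRNPH2, and reads over several genes of 1 strand were not counted, so its level is uncertain. The same holds for RPL17 (55.9 TPM), which shares sequence with RPL17-C18orf32. In all, 41 members overlap another gene on the same strand, 28 of them a small nucleolar RNA in an intron. With the length of the Ensembl canonical transcript in place of the exon union, an alternative added after the data were seen, the median member was at 1030 TPM and the order of the members had a Spearman correlation of 0.80 with the first order. RPS29 went from 39.3 to 864 TPM, and RPL36A from 11.3 to 38.7, which left RPL26L1 (38.0) in its place among the 5 lowest.

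Which line held more ribosomal protein transcripts was read first as a share of all counts. The members took 4.62% ± 0.122 of counts in AMO1, 4.13% ± 0.136 in H929 and 5.54% ± 0.156 in LP1 (SD, n = 6). The ranges, 4.40 to 4.74%, 3.95 to 4.28% and 5.39 to 5.79%, did not overlap, and each pair of lines differed with the smallest p that an exact two-sided permutation test of 6 against 6 can give (0.00216, 0.00216 after adjustment over the 3 pairs). Outside the 50 genes with the most counts, a measure that also leaves out 7 members, the shares were 4.17%, 3.73% and 4.74%. There the ranges of AMO1 (3.93 to 4.29%) and H929 (3.49 to 3.96%) overlapped (exact permutation test, adjusted p = 0.00433), and LP1 lay above both. Pseudogenes of ribosomal proteins, 1600 symbols, held 6.64%, 6.53% and 6.81% as many counts as the members in AMO1, H929 and LP1. No pair of lines passed in that ratio (exact permutation test, adjusted p = 0.344 for AMO1 against H929 and 0.0877 for each pair with LP1). Whether reads of members fell on pseudogenes was not tested. Of all counts the pseudogenes took 0.307%, 0.270% and 0.377%, and so followed the same order as the members. Mitochondrial ribosomal protein genes did not, with 0.374% in AMO1, 0.414% in H929 and 0.371% in LP1, where AMO1 and LP1 overlapped (exact permutation test, adjusted p = 0.437).

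Gene by gene, LP1 held most members at the highest level. Against AMO1, 62 of 83 members tested were higher in LP1 and 9 lower (edgeR quasi-likelihood test, adjusted p under 0.05), when 37.9% of all 26436 genes were higher and 37.9% lower. The median member was 0.48 higher on the log2 scale, and the median of all genes was -0.022. RPL10L had too few reads to be tested. Against H929, 68 members were higher in LP1 and 9 lower, with 36.2% of all genes higher and 38.4% lower, and the median member was 0.66 higher. Between AMO1 and H929, 46 members were higher in AMO1 and 9 lower, with 21.2% of all genes higher and 23.2% lower, and a median of 0.16. Few of these differences were large. With at least a 2-fold difference required as well, 7 members were higher and 2 lower in LP1 than in AMO1, beside 20.3% and 21.1% of all genes. Against H929 there were 9 and 2, beside 17.7% and 20.4%, and between AMO1 and H929 0 and 0, beside 3.06% and 7.15%. In all, 61 members were higher in LP1 than in both other lines, beside 31.9% of all genes, and 33 of them were also higher in AMO1 than in H929, beside 5.07% of all genes. Only RPL36A and RPS27A, which is fused to ubiquitin, passed the test in no pair. With library size alone as the scale, the median of all genes shifted from -0.022 to -0.20 between LP1 and AMO1, and the split of members became 56 higher and 20 lower, beside 32.2% of all genes higher and 44.6% lower. On that scale the median member was also less far above 0 in LP1 against AMO1 and against H929, with the values given in the last section.

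**Figure D1:**
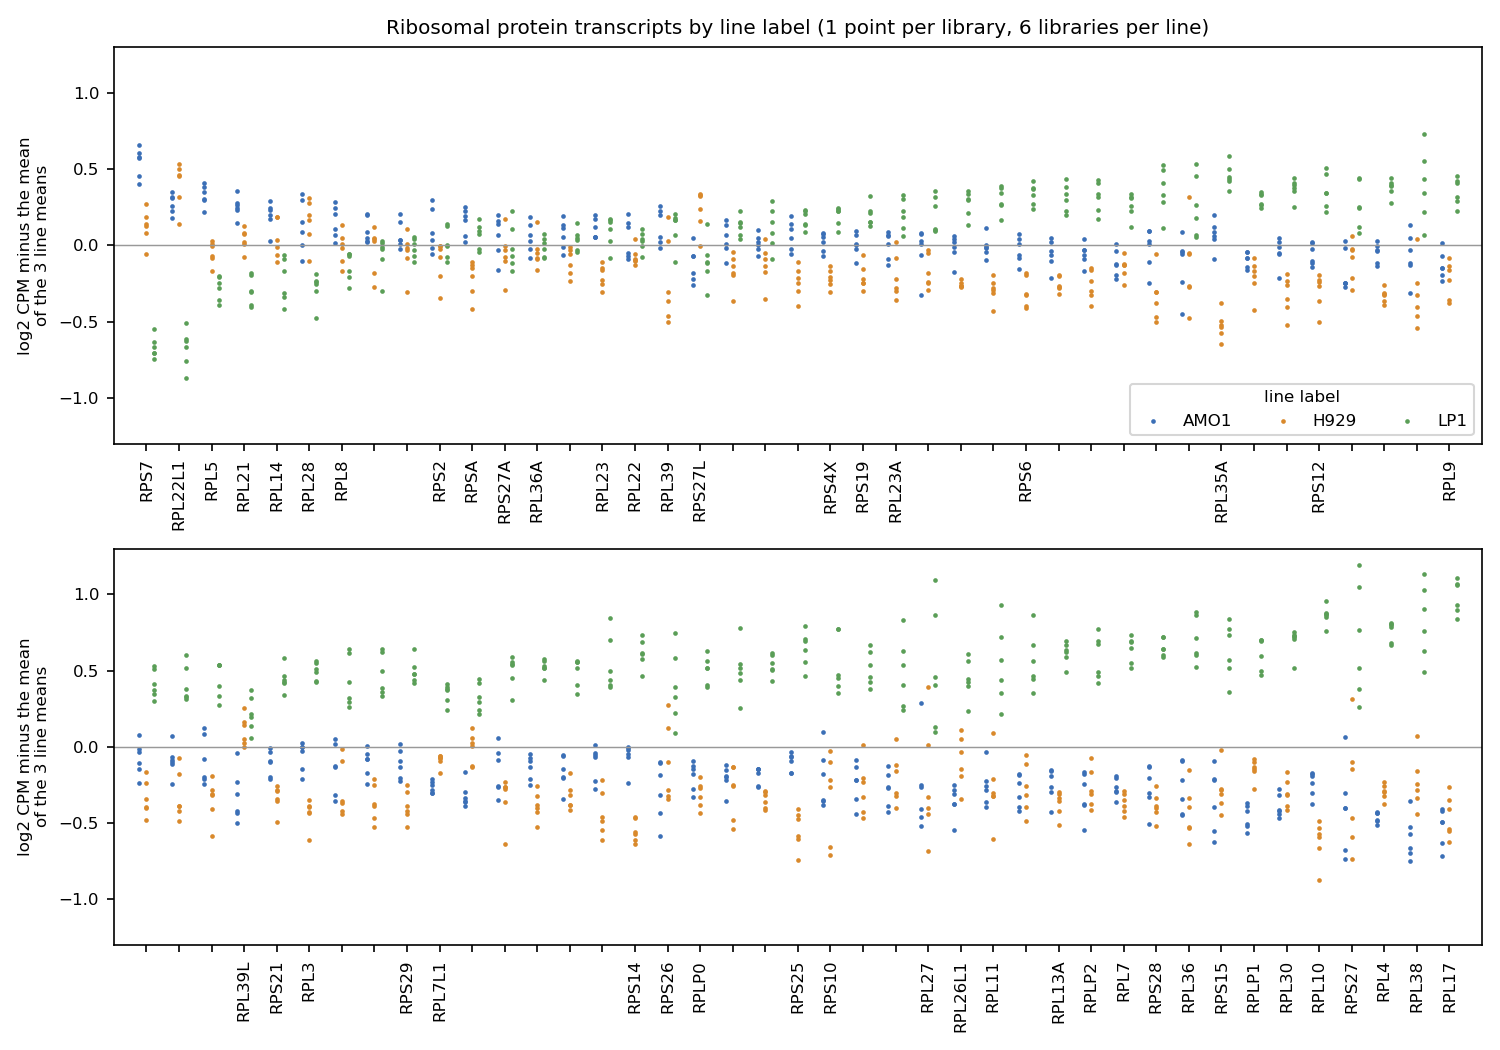
Each point is 1 library of 82 members (RPL3L and RPL10L are left out, and names are given for members described in the text), as log2 CPM minus the mean of the 3 line means on the vertical axis, with members ordered by the LP1 minus AMO1 difference. RPS7 and RPL22L1 stand lowest in LP1 at the left, and RPL17, RPL38 and RPL4 highest at the right.

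The members highest in LP1 came from both subunits. RPL4, of the wall of the peptide exit tunnel, was at 1375 to 1459 CPM in the 6 AMO1 libraries, 1513 to 1674 in H929 and 3115 to 3447 in LP1. It was 1.22 ± 0.033 (SE) higher in LP1 than in AMO1 on the log2 scale (edgeR, adjusted p = 1.36e-26) and 1.05 ± 0.033 higher than in H929 (adjusted p = 1.09e-24). RPL10, which joins the subunit late and carries mutations in T cell leukaemia, was at 897 to 1034 CPM in AMO1, 637 to 831 in H929 and 1975 to 2259 in LP1. No RPL10 value of LP1 overlapped those of the other lines, and the log2 differences were 1.11 ± 0.045 and 1.48 ± 0.045 (adjusted p = 4.79e-20 and 3.43e-23 by edgeR). RPL38, known for its part in translating Hox messenger RNAs, was at 103 ± 10.5 CPM in AMO1, 132 ± 16.8 in H929 and 277 ± 46.1 in LP1 (SD, n = 6). RPL17 was at 29.0 ± 2.38, 30.5 ± 2.97 and 82.6 ± 6.19 CPM, with the limit on its counting given above. RPS27, RPLP1 and RPL30 were also more than 1 higher on the log2 scale in LP1 than in AMO1, by 1.12, 1.07 and 1.08. Against H929 the same size was passed by RPS25 (1.18), RPS14 (1.17), RPL36 (1.13), RPS28 (1.04) and, narrowly, RPL7, besides RPL4, RPL10, RPL38 and RPL17. RPS14, a gene of the 5q- syndrome, was at 679 ± 39.5 CPM in AMO1, 484 ± 24.4 in H929 and 1086 ± 68.8 in LP1.

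The other way, 8 members were lower in LP1 than in both other lines, beside 32.4% of all genes. They were RPL3L, RPS7, RPL22L1, RPL5, RPL21, RPL14, RPL28 and RPL8. RPS7, a small subunit protein that binds MDM2 when it is free of the ribosome, was at 1095 to 1310 CPM in AMO1, 799 to 1002 in H929 and 495 to 568 in LP1. Its 3 ranges did not overlap. It was lower in LP1 by 1.21 ± 0.040 than in AMO1 and by 0.79 ± 0.040 than in H929 on the log2 scale (values of -1.21 and -0.79, edgeR adjusted p = 5.09e-24 and 9.6e-19). RPL5, which with RPL11 and 5S rRNA also binds MDM2, was at 708 to 810 CPM in AMO1, 543 to 621 in H929 and 464 to 531 in LP1. Its differences were -0.61 ± 0.037 against AMO1 (adjusted p = 2.61e-16 by edgeR) and -0.23 ± 0.037 against H929 (adjusted p = 1.11e-06). RPL11, its partner, did not follow: it was at 409 ± 31.1 TPM in AMO1, 406 ± 46.9 in H929 and 615 ± 86.8 in LP1, and 0.81 ± 0.13 and 0.82 ± 0.13 higher in LP1 in the fit (edgeR adjusted p = 8.18e-05 and 7.67e-05). RPL21 was at 314 ± 14.6 CPM in AMO1, 271 ± 13.1 in H929 and 215 ± 14.2 in LP1, and RPL28 at 797 ± 93.0, 810 ± 82.7 and 597 ± 39.9. RPL3L was at 0.466 CPM in AMO1, 0.583 in H929 and 0.108 in LP1, on few reads. RPS7, RPL22L1, RPL38, RPL35A and RPS14 overlap no other gene on their strand, whereas RPL4, RPL10, RPL5 and RPL21 hold small nucleolar RNAs.

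Between AMO1 and H929 the differences were smaller. RPL35A led the members higher in AMO1, at 500 ± 32.5 against 331 ± 20.7 CPM (log2 difference 0.60 ± 0.042, edgeR adjusted p = 7.66e-14). RPS14, RPS25, RPS7 and RPL5 followed, by 0.49, 0.44, 0.42 and 0.37 on the log2 scale. Among the called members lowest in AMO1 were RPL39L (-0.42), RPL38 (-0.36), RPS27L (-0.36) and RPLP1 (-0.31). The call for RPL38 was lost without AMO1 SCR library A or C, AMO1 gN1E library C, or H929 library A of either label, with adjusted p from 0.0505 to 0.0665 (edgeR).

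Of the members singled out for their disease roles, RPS19, the gene most often mutated in Diamond-Blackfan anaemia, was at 854 ± 23.9 TPM in AMO1, 740 ± 43.9 in H929 and 840 ± 30.8 in LP1. On the TMM scale of the fit it was higher in LP1 than in AMO1 by 0.19 ± 0.041 and than in H929 by 0.40 ± 0.041 (edgeR adjusted p = 8.38e-05 and 1.15e-10), so its order of AMO1 and LP1 differed between the scales. RPS15 was at 476 ± 51.7, 498 ± 31.7 and 807 ± 67.5 TPM, and 0.97 ± 0.11 and 0.92 ± 0.11 higher in LP1 in the fit (edgeR adjusted p = 1.49e-06 and 2.96e-06). RPSA, the laminin receptor precursor, was at 331 ± 16.5, 257 ± 17.6 and 269 ± 22.3 TPM. In the fit it did not pass between LP1 and AMO1 (-0.087 ± 0.047, edgeR adjusted p = 0.1) and was 0.28 ± 0.047 higher in LP1 than in H929 (adjusted p = 6.37e-06).

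The position of the members was compared with their line differences, a description added after the data were seen. For each member, the other genes within 1 Mb on either side with a mean of at least 1 CPM were read in the same fit. The 10 neighbours of RPS7 on chromosome 2 had a median log2 difference of -1.47 between LP1 and AMO1, and 9 of them were below 0. The 11 neighbours of RPL21 on chromosome 13 were at -1.25 with 10 below 0, the 16 of RPL5 on chromosome 1 at -0.69 with 12 below 0, and the 47 of RPL28 on chromosome 19 at -1.16 with 42 below 0. For RPL10 on chromosome X the median over 45 neighbours was 1.18, and for RPL38 on chromosome 17 it was 1.01 over 24. Other members higher in LP1 had neighbour medians below 0: RPS26, itself 0.69 higher, was beside a median of -0.65 over 48 genes, RPL34 (0.31) beside -0.63 over 12, and RPL27 (0.80) beside -0.25 over 53. The difference of RPL22L1 was -0.94, and the median of its 7 neighbours on chromosome 3 was -0.23 with 5 below 0. RPL35A, also on chromosome 3, was 0.39 higher in LP1 than in AMO1 beside a median of -0.22 for its 15 neighbours, 9 of them below 0. Wider gaps were those of RPL17, at 1.51 beside 0.32 over 12 neighbours, and RPS9, at 0.084 beside -1.67 over 40. Across 79 members with at least 5 neighbours, the Spearman correlation of a member's difference with its neighbours' median was 0.63 for LP1 minus AMO1, 0.69 for LP1 minus H929 and 0.53 for AMO1 minus H929. The same measure over 14099 other genes was 0.40, 0.42 and 0.32. The points share libraries, and neighbouring members share neighbours.

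**Figure D2:**
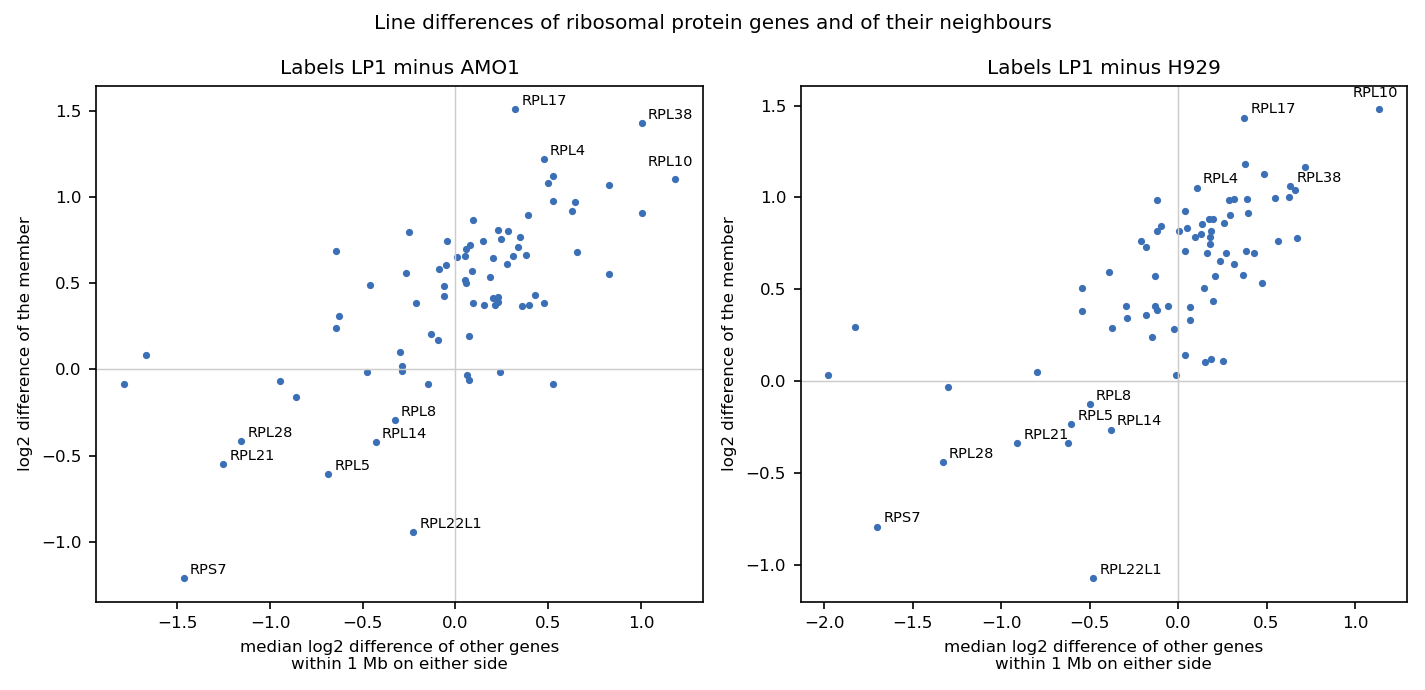
Each point is a member with at least 5 neighbours (RPL3L left out), its log2 difference between line labels on the vertical axis and the median log2 difference of other genes within 1 Mb on either side on the horizontal axis. RPS7, RPL21, RPL28 and RPL5 lie at the lower left with their neighbours, and RPL22L1 lies below its neighbours in both panels.

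Paralog use was read as the share of the paralog in the counts per kb of the parent and paralog together, in 7 pairs. The coding sequences of parent and paralog were 61.5% (RPL7 and RPL7L1) to 94.8% (RPL39 and RPL39L) identical, and their longest identical run was 50 bases (RPL10 and RPL10L), shorter than the 150 bases of a read. This compares parent with paralog only. Reads that also mapped to a pseudogene were not counted, which can lower either gene and shift the share, and the size of that effect was not tested. Over the 21 tests of 7 pairs in 3 pairs of lines, 14 passed an adjusted p of 0.05 in the exact permutation test of 6 against 6 libraries. Line differences were common over all genes. By edgeR 21.2% were higher and 23.2% lower in AMO1 than in H929. In LP1 37.9% were higher and 37.9% lower than in AMO1, and 36.2% and 38.4% than in H929. The share test was not run on other pairs of genes, so the count of 14 has no general rate beside it.

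The largest share of a paralog in the 7 pairs was that of RPL22L1, a protein that RPL22 is known to repress at the RNA level. RPL22L1 took 57.8% ± 2.69 of its pair in AMO1, 61.9% ± 2.17 in H929 and 41.8% in LP1 (mean and SD, n = 6). Its level against RPL22 depended on the length used. The deposited exon lengths are 4665 bases for RPL22 and 2051 for RPL22L1, and those of the canonical transcripts 2061 and 1902. With the canonical lengths the share was 39.6% ± 2.64, 43.7% ± 2.25 and 25.5% ± 1.26, so that RPL22L1 was below RPL22 in each line. The ranges and differences of the share that come next are again by the exon lengths of the files. The 6 LP1 libraries lay between 40.4 and 44.4%, below the lowest AMO1 library at 54.8% and the lowest H929 library at 58.6%. The difference was -16.0 percentage points between LP1 and AMO1 and -20.1 between LP1 and H929 (exact permutation test, adjusted p = 0.00455 for each). Between AMO1 and H929 it was -4.06 points (exact permutation test, adjusted p = 0.0357). RPL22L1 was at 58.6 ± 2.53 CPM in AMO1, 64.3 ± 6.26 in H929 and 30.5 ± 2.58 in LP1, with log2 differences of -0.94 ± 0.051 and -1.07 ± 0.051 for LP1 (edgeR adjusted p = 2.91e-17 and 9.25e-19). RPL22 was at 97.3 ± 8.67, 89.6 ± 3.84 and 96.1 ± 4.31 CPM. Its difference between LP1 and AMO1 was -0.013 ± 0.037 (edgeR adjusted p = 0.762), and its sign turned with DESeq2 and with RLE size factors (0.030 for each). RPL22 overlaps RNF207-AS1 and an unnamed gene on its strand, and reads shared with them were not counted.

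The other pairs had smaller paralog shares. With canonical lengths, 14 of the 21 line tests passed again and 0 calls or directions changed, but the shares fell: to 3.61 to 4.58% as line means for RPL26L1, 1.57 to 2.69% for RPL39L, 0.469 to 1.17% for RPS27L and 6.94 to 9.94% for RPL7L1. The values that follow use the exon lengths of the files. RPL7L1, whose protein acts in ribosome assembly, took 10.3% ± 0.491 of its pair in AMO1, 12.2% ± 0.380 in H929 and 8.60% ± 0.420 in LP1, and all 3 pairs of lines differed (exact permutation test, adjusted p = 0.00455 for each). Both RPL7 and RPL7L1 were higher in LP1 than in AMO1, by 0.91 and 0.61 on the log2 scale. RPL26L1 took 9.81% ± 0.866, 12.2% ± 1.45 and 10.4% ± 0.858. Its share in LP1 differed from H929 by -1.85 points (adjusted p = 0.0357 by the exact permutation test), and by 0.583 from AMO1 (adjusted p = 0.306). RPL39L, a paralog known from testis and tumours, took 5.79% ± 0.910 of its pair in AMO1, 9.60% ± 1.41 in H929 and 8.21% ± 0.789 in LP1. AMO1 was thus the lowest for RPL39L, by -3.81 points against H929 (exact permutation test, adjusted p = 0.00455). RPS27L, a target of p53, took 1.96% ± 0.322 in AMO1, 2.34% ± 0.618 in H929 and 0.943% ± 0.210 in LP1. Between LP1 and AMO1 the parent RPS27 differed by 1.12 and RPS27L by 0.020 on the log2 scale. RPL3L took at most 0.127% of its pair in any library, and RPL10L at most 0.0156%.

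**Figure D3:**
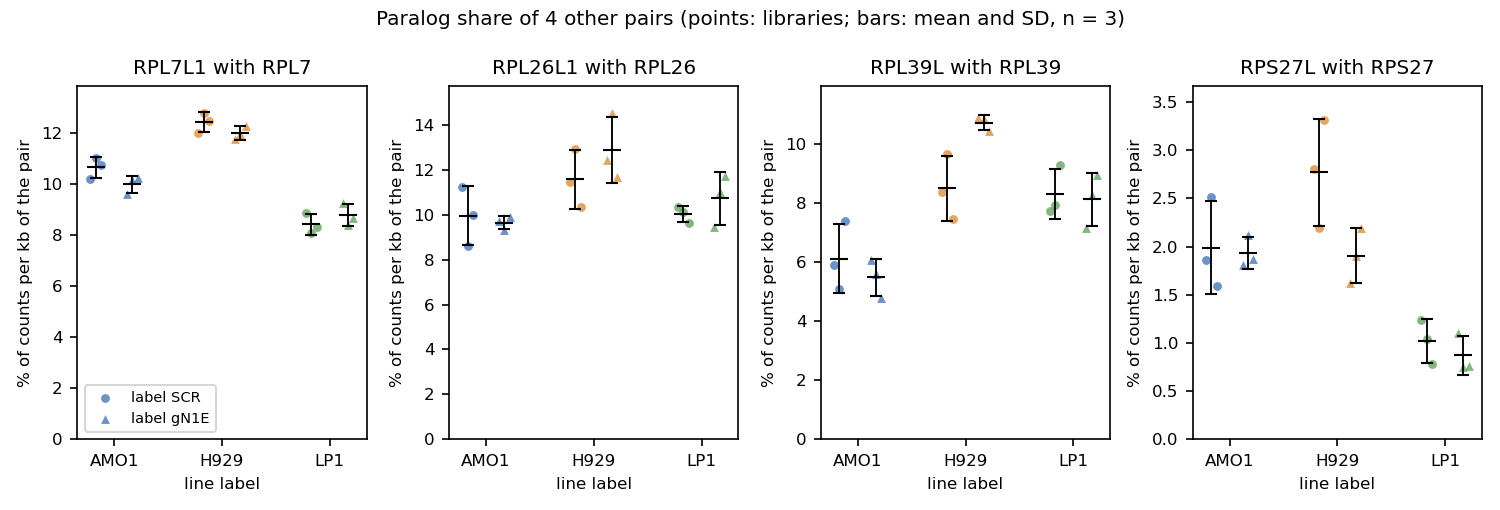
Each panel gives the paralog's percentage of the counts per kb of its pair by line label for RPL7L1, RPL26L1, RPL39L and RPS27L, with 1 point per library (circles SCR, triangles gN1E) and the mean and SD of 3 libraries. RPS27L is lowest in LP1 and RPL39L lowest in AMO1.

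The gapmer labels were then compared within each line. In AMO1, 1 of 83 members tested was higher and 0 lower at an adjusted p under 0.05 (edgeR), when 1.64% of 22933 genes were higher and 0.419% lower. At an unadjusted p under 0.05 there were 11 higher and 0 lower, beside 6.22% and 6.0% of all genes. In H929, 0 of 83 members were called by edgeR, when 3.7% of 23499 genes were higher and 1.77% lower. At an unadjusted p under 0.05, 4 were higher and 1 lower, beside 9.49% and 8.2% of all genes. In LP1, 0 of 82 members were called by edgeR, when 0.656% of 23165 genes were higher and 0.777% lower. Here 0 were higher and 3 lower at an unadjusted p under 0.05, beside 6.34% and 6.69% of all genes. DESeq2 gave the same counts in the 3 lines, and limma-voom did in AMO1 and LP1 but called 1 member lower in H929, RPL39, beside 1.25% of all genes. RPL3L had too few reads to be tested in LP1. The member share of all counts was 4.66% ± 0.0723 under gN1E and 4.58% ± 0.163 under SCR in AMO1, 4.14% ± 0.171 and 4.12% ± 0.129 in H929, and 5.53% ± 0.227 and 5.55% ± 0.0958 in LP1 (SD, n = 3). The differences, 0.0830, 0.0173 and -0.0225 percentage points, left the libraries of the labels overlapping (exact permutation p = 0.6, 0.9 and 0.9, where 3 against 3 cannot go below 0.1). Within the letter pairs of AMO1 the share was higher under gN1E in 3 of 3, by 0.0248 percentage points in pair A, 0.199 in C and 0.0256 in D (exact paired permutation p = 0.25, the smallest that 3 pairs can give).

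RPL22 was the member called in AMO1. It was at 89.7, 88.3 and 90.9 CPM in the SCR libraries A, C and D, and at 102, 104 and 108 CPM in the gN1E libraries. The groups did not overlap, and the log2 difference was 0.23 ± 0.055 (edgeR adjusted p = 0.029). The call was lost without SCR library C or D or gN1E library C or D, with adjusted p from 0.0582 to 0.239, and with library size alone as the scale (adjusted p = 0.0958, edgeR). The labels do not say that libraries of 1 letter belong together. In AMO1 they were taken as pairs from these data, since same-letter deviations from the group means correlated weakly, at 0.198, 0.16 and 0.121. With the pair as a block 5 members were higher, beside 3.38% of all genes: RPL22 (0.23, edgeR adjusted p = 0.00092), RPL23A (0.15, 0.029), RPS29 (0.16, 0.0348), RPS6 (0.14, 0.0285) and RPS7 (0.14, 0.0344). RPS6 is the target of the S6 kinases. Together with the offset for genomic span the block gave 24 members higher, beside 2.85% of all genes, and the offset alone 3, beside 1.33%.

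In H929 the lowest p of a member belonged to the paralog RPL22L1. It was at 66.6, 68.7 and 70.2 CPM under SCR and at 66.3, 60.5 and 53.4 CPM under gN1E, libraries A, B and C in each case. The 3 gN1E values lay below the 3 SCR values, by a log2 difference of -0.20 ± 0.064 that missed the threshold (edgeR adjusted p = 0.0739). It passed by edgeR with library size alone (-0.25, adjusted p = 0.00906), with no filter on low counts (-0.20, 0.0112) and without gN1E library A (-0.28, 0.00549). RPL22 in H929 was at 87.6 to 90.4 CPM under SCR and 86.0 to 96.9 under gN1E, which overlapped. RPL39, of the exit tunnel, was at 173, 132 and 193 CPM under SCR and at 138, 120 and 124 CPM under gN1E in H929. SCR library B lay inside the gN1E values, and the log2 difference was -0.40 ± 0.17 (edgeR adjusted p = 0.357). It was -0.38 with limma-voom (adjusted p = 0.0379) and -0.54 by edgeR without SCR library B (adjusted p = 1.5e-07). In LP1 the log2 differences of RPL22 and RPL22L1 were -0.041 ± 0.051 and -0.071 ± 0.072 (edgeR adjusted p = 0.795 and 0.736).

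The RPL22L1 share of the pair lay lower under gN1E in 2 lines, where RPL22 differed by 0.23 and RPL22L1 by -0.041 in AMO1, and by 0.017 and -0.20 in H929. The share was 55.6% ± 1.10 under gN1E and 60.1% ± 1.21 under SCR in AMO1, and 60.1% ± 1.33 and 63.7% ± 0.307 in H929 (SD, n = 3). The libraries did not overlap in either line (exact permutation p = 0.1 in each, the smallest that 3 against 3 can give, and 0.525 after adjustment over 21 tests). In LP1 it was 41.6% ± 1.45 and 42.1% ± 2.03, which overlapped. Of the 21 tests of a paralog share by gapmer label, 4 had libraries that did not overlap, these 2, RPL39L in H929 (10.7% under gN1E against 8.49%) and RPS27L in H929 (1.90% against 2.77%). Over all genes, libraries did not overlap for 9.17% higher and 8.5% lower in AMO1, 12.2% and 9.57% in H929, and 7.42% and 10.6% in LP1, so the count of 4 in 21 is near the general share. No share test by gapmer label could pass 0.05 in this exact test of 3 against 3 libraries, and no test that uses the spread was run on the shares.

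**Figure D4:**
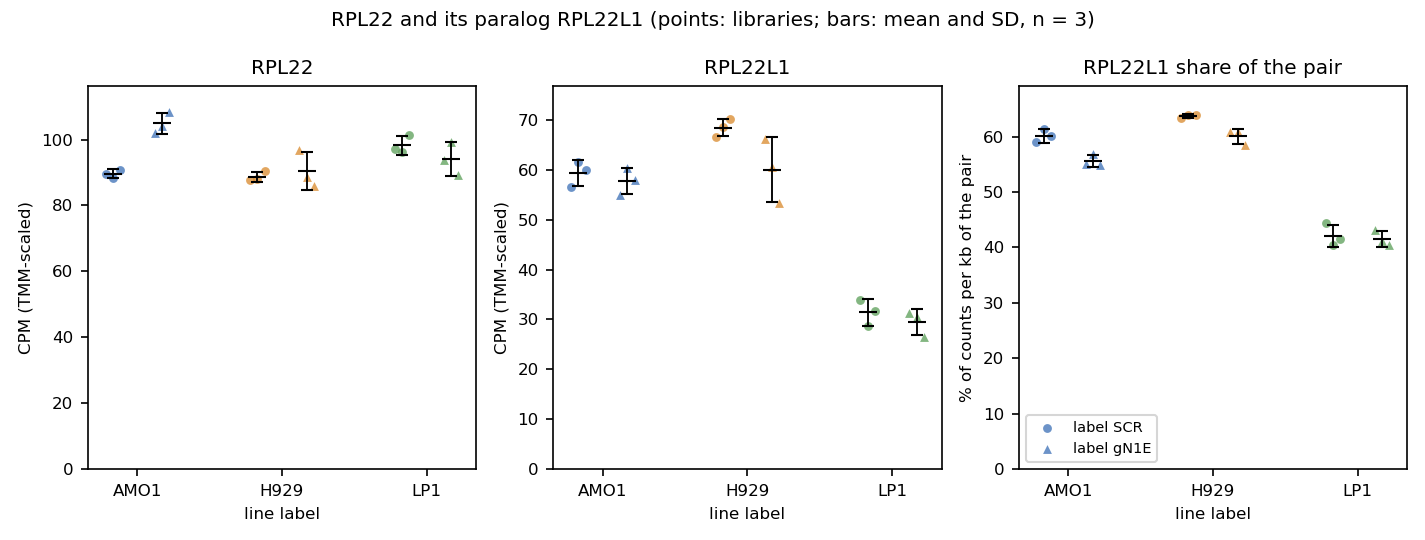
The left and middle panels give CPM of RPL22 and RPL22L1, and the right panel the RPL22L1 percentage of the counts per kb of the pair, by line label with circles for SCR and triangles for gN1E and the mean and SD of 3 libraries. The share lies lower under gN1E in AMO1 and H929 without overlap (exact permutation p = 0.1 in each, the smallest possible), and LP1 lies below both at 40.4 to 44.4%.

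Over all members tested, log2 differences ran from -0.19 to 0.23 in AMO1, from -0.49 to 0.41 in H929 and from -0.18 to 0.12 in LP1. The median was 0.063 in AMO1 with 63 of 83 above 0, 0.050 in H929 with 62 of 83 above 0, and -0.041 in LP1 with 57 of 82 below 0, where the medians of all genes were -0.016, -0.0096 and -0.0012. In AMO1, 16 members were higher and 0 lower without overlap of the libraries, against 9.17% and 8.5% of all genes. Among them were RPL23, a large subunit protein that binds MDM2 (911, 912 and 911 CPM under SCR, 988, 1007 and 953 under gN1E), RPS6, RPS7, RPL5 and RPL4. In H929, 2 were higher (RPS7 among them) and 1 lower (RPL22L1), against 12.2% and 9.57% of all genes. In LP1, 0 were higher and 2 lower (RPL9 and RPL23), against 7.42% and 10.6%. RPL23 was at 974 to 991 CPM under SCR and 827 to 946 under gN1E in LP1, the opposite order to AMO1.

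**Figure D5:**
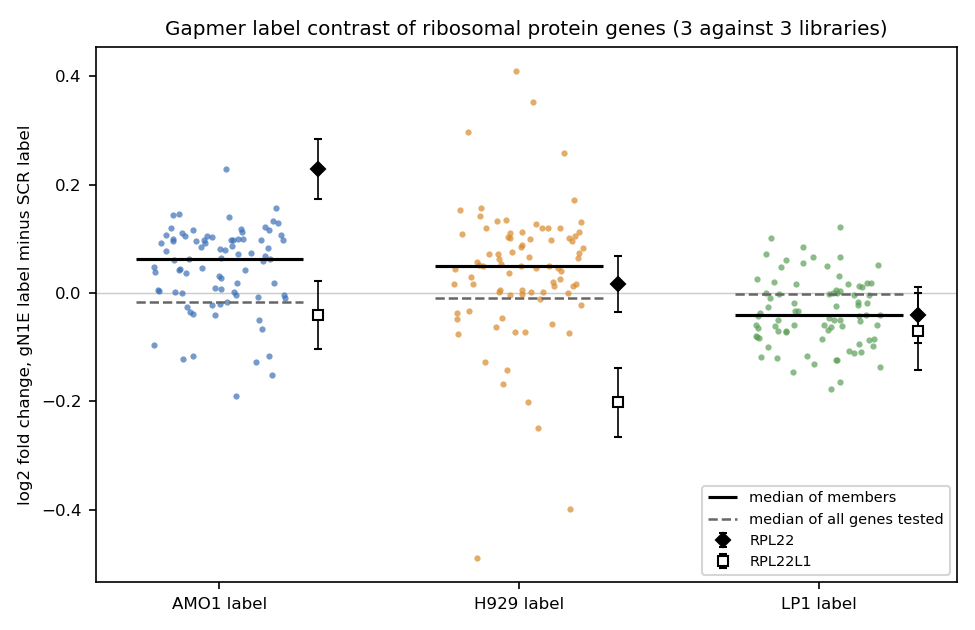
Each point is the log2 fold change of a member between the gN1E and SCR labels in 1 line label, with the members' median as a solid line, the median of all genes as a dashed line, and RPL22 and RPL22L1 repeated at the side with their SE. Most points lie within 0.2 of 0, above it in AMO1 and H929 and below it in LP1.

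Whether the gapmer label contrast differed between lines was tested in 1 fit of all 18 libraries. By edgeR and by limma-voom, 0 members passed an adjusted p of 0.05 in the 3 tests (edgeR, smallest adjusted p of 0.67, 0.0518 and 0.249), when 0.0%, 0.741% and 0.874% of 26436 genes did for AMO1 minus H929, LP1 minus AMO1 and LP1 minus H929. RPL22 came nearest, with a response -0.29 ± 0.073 lower in LP1 than in AMO1 (adjusted p = 0.0518, edgeR). This fit leaves out the pairing by letter that was inferred for the AMO1 libraries. With the letter as a block in AMO1, an alternative added after the data were seen, RPL22 passed for LP1 minus AMO1 (-0.29 ± 0.072, edgeR adjusted p = 0.039), as the 1 member called, beside 0.768% of all genes lower. With the letter as a block in every line RPL22 missed (adjusted p = 0.0559, edgeR) and RPL23 was the 1 member called (adjusted p = 0.0472), beside 0.73% of all genes lower. At an unadjusted p under 0.05, 14 members had a lower response in LP1 than in AMO1 and 0 a higher one, beside 6.28% and 4.39% of all genes. Against H929, 4 were lower in LP1 and 0 higher, beside 6.88% and 3.19%. Between AMO1 and H929, 3 were higher in AMO1 and 0 lower, beside 2.51% and 4.19%. The comparisons share the libraries of each line.

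Libraries of 1 group differed in a way that many members shared. After the group mean was taken off, the first component held 65.5% of the spread of the 82 members with at least 100 reads in every library, and 72 of the 82 moved with the same sign in it. The median SD within groups was 0.10 on the log2 scale for members and 0.083 for 10507 other genes of the same read minimum. RPL27 (SD 0.39) and RPS27 (0.36) varied most, with RPS26, RPS10 and RPL11 at 0.23 to 0.24. RPL4 (0.042) and RPS4X (0.051) varied least. The gN1E library C of H929 had the lowest median deviation of the members in its line (-0.095) and gN1E library A the highest (0.076). Without library C, 12 members were higher in H929 under gN1E (edgeR), among them RPS26 (0.44), RPL23A (0.25) and RPL11 (0.25), beside 3.56% of all genes. Without library A, 4 were lower, beside 1.17% of all genes. In AMO1, SCR library C stood lowest (-0.093). The largest deviation of the 18 libraries was that of LP1 gN1E library B (0.11). The counts in H929 thus depended on single libraries.

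Genes that serve the same machinery were read beside the members, from lists chosen with earlier results of these data known. Of the 4 ribosomal proteins listed outside the symbol rule, 4 were higher in LP1 than in AMO1 and than in H929, beside 31.9% of all genes, FAU, RPL36AL and the scaffold RACK1 among them (RACK1 by 1.03 and 1.42 on the log2 scale). Under gN1E, edgeR called 1 of these 4 higher in AMO1, beside 1.64% of all genes, and 0 in H929 and LP1. At an unadjusted p under 0.05, 2 were higher and 0 lower in H929, beside 9.49% and 8.2% of all genes. Of 34 ribosome assembly genes, 26 were higher and 4 lower in LP1 than in AMO1, beside 37.9% of all genes in each direction, with a median of 0.51. In AMO1 against H929, 1 was higher and 23 lower, beside 21.2% and 23.2% of all genes, with a median of -0.16 where the members were at 0.16. Under gN1E, edgeR called 1 of the 34 higher in AMO1 and 4 in H929, beside 1.64% and 3.7% of all genes, and 0 in LP1, where 3 were higher and 0 lower at an unadjusted p under 0.05, beside 6.34% and 6.69% of all genes. POLR1B, the second largest subunit of RNA polymerase I, was higher in AMO1 (0.37 ± 0.058, edgeR adjusted p = 0.000487) and H929 (0.35 ± 0.054, adjusted p = 5.37e-05). NOLC1, MDN1 and POLR1A were higher as well in H929, by 0.23, 0.18 and 0.21. In LP1, POLR1B was at 0.11 (edgeR adjusted p = 0.396).

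Of 15 other genes of the TOP class tested, most of them translation factors, 10 were higher and 3 lower in LP1 than in AMO1 (37.9% of all genes in each direction), and 12 higher and 2 lower in AMO1 than in H929 (21.2% and 23.2% of all genes). Under gN1E, edgeR called 2 of the 15 lower in H929 and 1 in LP1, beside 1.77% and 0.777% of all genes, and 0 in AMO1, where 6 were higher and 1 lower at an unadjusted p under 0.05, beside 6.22% and 6.0% of all genes. VIM, an intermediate filament gene on this list, was lower in H929 (-0.28 ± 0.056, edgeR adjusted p = 0.00168) and LP1 (-0.27 ± 0.052, adjusted p = 0.0104), and EIF3E in H929 (-0.18). Of 5 regulators of the class, MYC (0.31 ± 0.051, edgeR adjusted p = 0.000124), MTOR (0.16) and EIF4EBP1 (0.19) were higher under gN1E in H929, beside 3.7% of all genes, and MYC was at 0.087 in AMO1 and 0.024 in LP1 (edgeR adjusted p = 0.687 and 0.88). Between lines these regulators were mixed by edgeR. Of the 5, 2 were higher and 3 lower in LP1 than in AMO1, beside 37.9% of all genes in each direction. Against H929, 1 was higher and 2 lower in LP1, beside 36.2% and 38.4% of all genes. The log2 difference of MYC was -0.58 between LP1 and AMO1 and -0.76 between LP1 and H929. Of 6 dedicated ribosomal protein chaperones, 3 were higher in LP1 than in AMO1, GRWD1 (1.65), BCCIP (1.04) and HEATR3 (0.12), and 3 lower, TSR2 (-0.75), PDCD2 (-0.60) and PDCD2L (-0.25), beside 37.9% of all genes in each direction. Of the members they escort, RPL3 (GRWD1) was 0.56 ± 0.040 higher in LP1 than in AMO1 and RPS26 (TSR2) 0.69 ± 0.14 higher (edgeR adjusted p = 1.69e-14 and 0.000445), and RPL5 (HEATR3) was lower, as given above. RPL23 (BCCIP) and RPS2 (PDCD2) did not pass, at -0.018 and -0.087 (edgeR adjusted p = 0.667 and 0.272). Of 78 mitochondrial ribosomal protein genes, 43 were higher and 25 lower in LP1 than in AMO1, beside 37.9% of all genes in each direction. Their median was 0.14 on the TMM scale, which the share of counts given above does not use. In AMO1 against H929, 10 were higher and 44 lower, beside 21.2% and 23.2% of all genes.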

How the data were processed

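The authors deposited raw read-pair counts per gene for 18 libraries, per the file headers and the submitters' processing notes: alignment to hg38 used STAR 2.7.10a, and exons of GENCODE release 43 were counted by strand using featureCounts 1.6.4. Reads that mapped to several places or lay over several genes of 1 strand were not counted, which lowers members with near-identical pseudogenes or overlapping genes. The deposited exon length is the union of all exons.

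Groups came from the sample labels; the names inside the tables exchange SCR with gN1E and H929 with LP1. Symbols matched 62639 identifiers. Genes with at least 10 reads in 1 library were tested with edgeR 4.0.16 (R 4.3.3; TMM scaling, quasi-likelihood, Benjamini-Hochberg over all genes), within a line for the gapmer label and in a joint fit for lines and for differences of response. The authors' methods used voom and limma, here an alternative with DESeq2 1.42.0 and limma 3.58.1. CPM are TMM-scaled over 18 libraries. Shares were tested by exact two-sided permutation (scipy). The labels do not state a pairing. Letters were taken to pair the AMO1 libraries, since same-letter deviations correlated at 0.198, 0.16 and 0.121. Those of H929 (-0.00209, -0.0686, -0.0942) and LP1 (0.177, 0.00724, -0.0601) were not, although letter A of LP1 reached a value within the AMO1 range. The fits were tested on simulated counts, where the share of false calls was above the threshold, most so for the gapmer label in H929. Named members were the 7 paralogs and their parents, up to 8 called members per line and direction, the 5 called members highest and lowest per pair of lines, the 5 members highest and lowest by TPM, and 7 known disease genes. The members and lists were chosen with earlier results of these data known. Values of a few genes are not reported here.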

Additional observations from a re-analysis of the deposited data

How the results depend on the processing

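In AMO1 the 1 member higher under gN1E became 0 with library size only and with an adjusted p under 0.1 and 1.5-fold, 3 with the trend on genomic span removed from each library as an offset, 5 with the replicate block and 24 with both, and 0 to 1 when 1 library was left out. In H929 the 0 lower became 1 with limma-voom (RPL39) and with library size only or no filter (RPL22L1), and the 0 higher 3 with no filter; leaving out 1 library gave 0 to 12 higher and 0 to 4 lower. In LP1 the 0 lower became 1 with no filter, and 0 to 1 in each direction without 1 library. The replicate block changed no call in H929 and LP1, where letters were not taken to pair the libraries. Tests of the difference of response gave 0 to 1 members for LP1 minus AMO1 (RPL22) and LP1 minus H929 (RPL23A) without 1 library, and 1 for LP1 minus AMO1 with the replicate block in AMO1 (RPL22) or in every line (RPL23).

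Medians of the members kept their sign between lines. The members lower in LP1 than in AMO1 became 20 with library size only; medians became 0.30 with library size only and 0.40 with libraries labelled gN1E only, and against H929 0.46 and 0.57. The members lower in AMO1 than in H929 became 5 with libraries labelled gN1E only. The share of all genes under that setting is not given here, so this count cannot be set against it. With a 2-fold rule, 0 and 0 members were higher and lower in AMO1 than in H929, 7 and 2 in LP1 than in AMO1, and 9 and 2 in LP1 than in H929. Among 36 members without same-strand overlap or low counts (under 2000 reads in a library), a choice made after seeing the data, 19 and 3, 29 and 3, and 31 and 2 passed (all genes: 21.2% and 23.2%, 37.9% and 37.9%, 36.2% and 38.4%), and the medians for LP1 were 0.58 and 0.76.

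Signs turned for values near 0. Under gN1E, RPL22L1 in AMO1 was 0.0035 and 0.0061 with the span offset alone and with the block, and RPL22 in H929 was -0.030 with library size only (-0.036 to 0.054 without 1 library). With libraries labelled SCR only, AMO1 minus H929 was -0.033 for RPL26, 0.033 for RPS15 and 0.15 for RPS27, and with those labelled gN1E only -0.043 for RPL11. LP1 minus AMO1 was 0.030 for RPL22 with DESeq2 and with RLE size factors, 0.033 and 0.034 for RPL39, and 0.13 and 0.069 for RPL22 and RPL39 with libraries labelled SCR only; it was -0.16 for RPS27L with library size only. LP1 minus H929 with library size only was -0.090 for RPL22 and -0.082 for RPL39L. Without 1 library, AMO1 minus H929 ran from -0.072 to 0.099 for RPL11 and -0.12 to 0.0054 for RPS15, and LP1 minus AMO1 from -0.033 to 0.0060 for RPL22, -0.038 to 0.036 for RPL39 and -0.024 to 0.053 for RPS27L. The RPL10L share difference ran from -0.00248 to 0 for AMO1 minus H929 and from -0.00063 to 0.0038 for LP1 minus H929. The causes were not tested.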
